A study of Mus musculus with 16 samples.

Results

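The genes described are Myc and 40 factors that build ribosomes in the nucleolus, 41 genes in all of 27179 entries in the deposited table. They were taken by symbol from a written list. All 41 were in the table, and all 41 had a normalized count of at least 10 in all 16 libraries, so each is among the 14005 genes that were tested.

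The cells were PDGFRb+ progenitors sorted from inguinal white fat of C57BL/6 mice and grown in medium with 10% serum. PDGFRb is a receptor for platelet-derived growth factor that marks adipose progenitor cells (APCs) and cells of vessel walls, and DPP4 is a surface peptidase of interstitial progenitors. The 4 groups were DPP4_neg APCs with PBS vehicle, DPP4_neg APCs with isoproterenol, DPP4_pos APCs with PBS vehicle and DPP4_pos APCs with isoproterenol, each with 4 libraries. Isoproterenol, an agonist of beta-adrenergic receptors that raises cAMP, was given for 4 h at a labelled dose of 10 mM. The labels name no engineered allele for any group and state neither age nor sex of the mice. Nor do the labels say whether the 4 libraries of a group came from separate animals or cultures, so p-values measure the spread between libraries, which may be technical.

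Myc is a transcription factor that binds DNA together with Max and is known for raising the output of ribosomes in growing cells. RNA polymerase I copies the ribosomal RNA precursor. Small nucleolar RNA-protein particles modify the precursor, and assembly factors cut and fold it into the small and the large subunit while ribosomal proteins join. In white fat, such growth programmes are known to accompany the entry of progenitors into division and differentiation.

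The sort label was checked first. Dpp4 stood at 21.1 ± 4.16 and 9.89 ± 2.29 normalized counts in DPP4_neg vehicle and isoproterenol libraries, against 3053 ± 186 and 2223 ± 97.7 in the DPP4_pos ones (mean ± SD, n = 4 in each). Of the 7 interstitial markers, Dpp4 among them, 6 were higher and 1 lower in DPP4_pos than in DPP4_neg vehicle libraries. The lower one was Anxa3, with means of 6417 against 7960. Between the isoproterenol groups all 7 were higher in DPP4_pos APCs. Isoproterenol itself raised 5 of the 7 and lowered 2 in each population. Means of Pi16 and Cd55 were 1099 and 5899 in DPP4_neg isoproterenol, above 518 and 291 in DPP4_pos vehicle libraries. Crem, a gene that cAMP signalling induces, rose from 128 ± 12.5 to 3169 ± 203 in DPP4_neg and from 128 ± 4.82 to 5532 ± 150 in DPP4_pos APCs. Pdgfrb was present in every group and fell with isoproterenol, from 11315 ± 149 to 9028 ± 396 normalized counts in DPP4_neg and from 7562 ± 367 to 2105 ± 163 in DPP4_pos APCs. Pdgfra, another progenitor marker, fell as well, from 13351 ± 241 to 10597 ± 600 and from 33546 ± 239 to 10639 ± 438. Of the 8 progenitor markers, 2 rose and 2 fell in DPP4_neg APCs (32.1% and 33.6% of all tested genes). In DPP4_pos APCs 0 rose and 6 fell (39.4% and 43.3%). Means of Ly6a went from 3449 to 6360 and of Cd34 from 36.3 to 60.9 in DPP4_neg APCs. In DPP4_pos APCs Dcn (58156 to 58799) and Ly6a (19268 to 19364) hardly moved. The libraries held between 9823799 and 28627223 reads in genes. As a share of the normalized counts, the 8 mural markers, a sum made mostly of Acta2, came to 0.673 to 0.745% (DPP4_neg vehicle), 0.465 to 0.5002% (DPP4_neg with isoproterenol), 0.0456 to 0.0520% (DPP4_pos vehicle) and 0.0254 to 0.0307% (DPP4_pos with isoproterenol). Not all 8 moved with that sum: 1 rose and 5 fell with isoproterenol in DPP4_neg and 3 rose and 5 fell in DPP4_pos APCs, where the mean of Kcnj8 went from 16.9 to 151, that of Abcc9 from 399 to 516 and that of Rgs5 from 5.70 to 27.8. The 5 adipocyte markers summed to 0.180 to 0.207%, 0.0687 to 0.0825%, 0.0695 to 0.0794% and 0.0195 to 0.0231% in the same order, with Lep at or near 0. Markers of leukocytes and of endothelium each summed to under 0.011% in every library, and Cd3e was at or near 0. These marker sums differ between the groups along with the genes below, and their part in the results was not tested. In bulk RNA, fewer cells of a type and less RNA per cell cannot be told apart.

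Promoter letters are shown for 5 of the genes because Myc with Max binds the E-box CACGTG and the cAMP-responsive factor CREB binds the CRE TGACGTCA or its core TGACG. RefSeq promoter windows of GRCm38.p6, 250 bases before to 50 after each start site, were found for 34 of the 41 genes. Nop2 and Rrn3 hold an E-box before the start site, Rrn3 in 2 places, and Rrp1b is the gene with the highest response to isoproterenol in both populations. The 250 bases before the start are given for these 3 genes, 5′ to 3′, with capitals marking the E-box in Nop2 (chr6:125131633-125131882, plus strand) and Rrn3 (chr16:13780449-13780698, plus strand) and the CRE core, read on either strand, in Rrp1b (chr17:32035912-32036161, plus strand).
Nop2: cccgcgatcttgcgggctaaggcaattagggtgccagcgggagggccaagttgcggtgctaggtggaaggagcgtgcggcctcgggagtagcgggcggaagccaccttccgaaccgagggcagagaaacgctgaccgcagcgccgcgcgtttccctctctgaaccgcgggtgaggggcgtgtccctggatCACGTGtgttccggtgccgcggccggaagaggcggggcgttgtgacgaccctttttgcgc
Rrn3: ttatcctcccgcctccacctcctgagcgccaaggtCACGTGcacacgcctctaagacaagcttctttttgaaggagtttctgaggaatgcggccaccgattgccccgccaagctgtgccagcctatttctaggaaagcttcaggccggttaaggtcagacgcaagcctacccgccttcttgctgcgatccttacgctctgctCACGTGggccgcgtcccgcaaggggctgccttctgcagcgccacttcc
Rrp1b: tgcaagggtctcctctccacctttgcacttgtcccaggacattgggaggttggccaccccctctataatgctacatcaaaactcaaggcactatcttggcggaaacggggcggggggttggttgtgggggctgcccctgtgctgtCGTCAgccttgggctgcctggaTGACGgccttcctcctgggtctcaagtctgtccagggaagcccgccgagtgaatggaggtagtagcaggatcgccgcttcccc
Tsr1 and Utp20 hold the E-box just after the start site, and 20 bases around it are given, again with the E-box in capitals, for Tsr1 (chr11:74898097-74898116, plus strand) and Utp20 (chr10:88826765-88826784, minus strand).
Tsr1: tggtgcaCACGTGgactgca
Utp20: ctaactaCACGTGaggaaaa
An E-box was present in the window of 8 of the 34 genes (23.5%), against 11.7% of tested genes and 8.09% of all genes in the promoter table. The 8 are Nop2, Rrn3, Tsr1, Utp20, Pes1, Pno1, Mybbp1a and Wdr43. A full CRE was in none of the 34 windows, against 3.6% of tested genes and 2.03% of all genes. The CRE core, TGACG or its complement CGTCA and also part of every full CRE, was in 16 of 34 (47.1%), against 34.8% of tested genes and 23.0% of all genes. The median log2 response in DPP4_pos APCs was 1.46 over the 8 genes with an E-box (0.93 to 2.03) and 1.56 over the other 26 (-0.24 to 2.54), and the ranges overlap. In DPP4_neg APCs the medians were 0.28 and 0.40, and the median difference between the responses was 1.26 with an E-box and 1.18 without, again with overlapping ranges. The motifs were searched on both strands, and the matches describe these windows only.

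Isoproterenol raised Myc in both populations, and far more in DPP4_pos APCs. Myc stood at 679, 660.1, 661 and 694 normalized counts in the DPP4_neg vehicle libraries and at 944, 871, 823 and 909.6 with isoproterenol. Myc counts in the DPP4_pos libraries were 615, 583, 645 and 644 with vehicle and 2182, 2192, 2302 and 2229 with isoproterenol. Every isoproterenol library was above every vehicle library of its population, and the 4 DPP4_pos isoproterenol libraries stood above all 12 others. Myc lies on chromosome 15 from 61985341 to 61990361 (GRCm38.p6). On the log2(normalized count + 1) scale used for all differences below, Myc rose by 0.39 ± 0.045 (SE) in DPP4_neg APCs, a 1.31-fold change (adjusted p = 9.52e-08), and by 1.84 ± 0.045 in DPP4_pos APCs, a 3.58-fold change (adjusted p = 1.14e-19, limma with Benjamini-Hochberg adjustment over 14005 genes, as for every adjusted p here). The difference between the 2 responses was 1.44 ± 0.064 (adjusted p = 3.52e-14). With vehicle, Myc was slightly lower in DPP4_pos than in DPP4_neg APCs, by 0.12 ± 0.045 (adjusted p = 0.0267). That call was lost when each library was scaled to the same total (-0.05, adjusted p = 0.301) and when DPP4_pos vehicle replicate 2 was left out (-0.09, adjusted p = 0.114). It was also lost under quantile normalization (-0.09, adjusted p = 0.0689), without DPP4_pos vehicle replicate 1 and without DPP4_neg vehicle replicates 1 or 4. With isoproterenol, Myc was 2.51-fold higher in DPP4_pos APCs (log2 difference 1.33 ± 0.045, adjusted p = 7.44e-17).

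**Figure D1:**
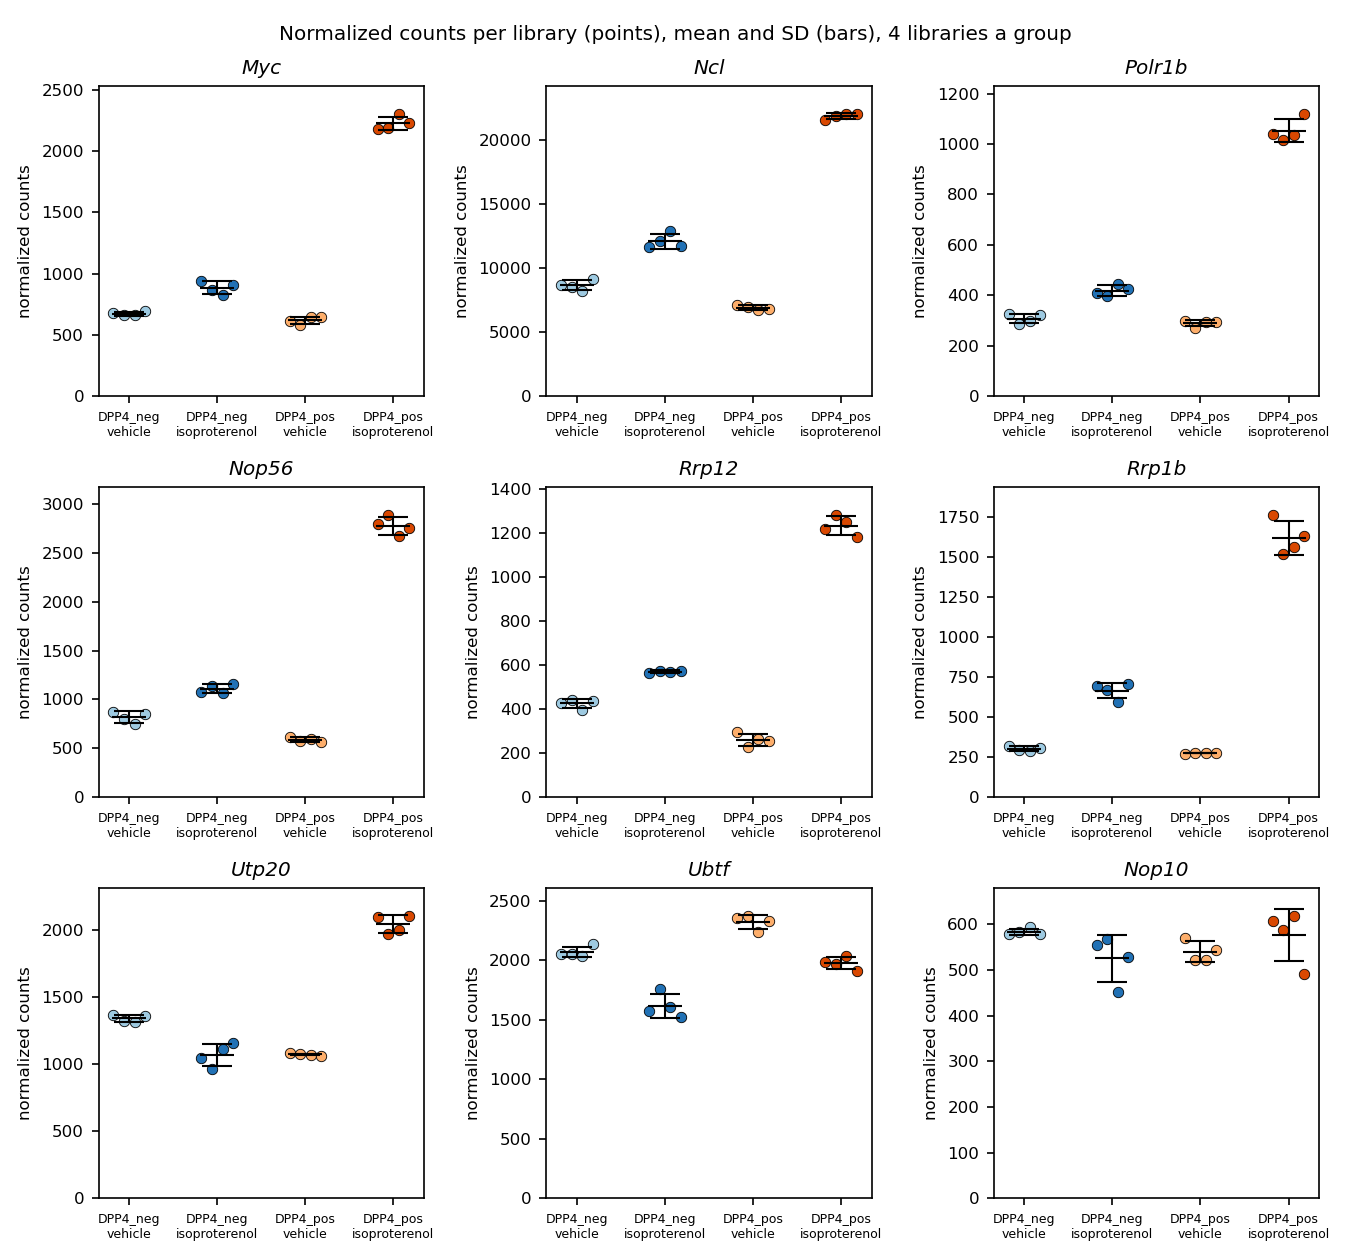
Normalized counts (vertical axes, from 0) of 9 of the genes in each of the 16 libraries, in 4 groups along the horizontal axis; points are libraries, bars the mean and SD of 4. In the 6 panels from Myc to Rrp1b the DPP4_pos isoproterenol libraries stand above all others, while Utp20 was lower with isoproterenol in DPP4_neg APCs, Ubtf was lower with isoproterenol in both populations and Nop10 stayed between 453 and 618.

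Most of the ribosome factors rose with isoproterenol as well. In DPP4_neg APCs, 36 of the 41 genes rose, 2 fell and 3 were not called, with a median log2 difference of 0.39, where 32.1% of all tested genes rose and 33.6% fell with a median of -0.02. In DPP4_pos APCs, 39 rose, 1 fell and 1 was not called, with a median of 1.597, a 3.03-fold change, where 39.4% of all tested genes rose and 43.3% fell with a median of -0.05. Of these 39, 37 rose at least 2-fold in the deposited scaling, against 1 of 36 in DPP4_neg APCs. Of all 14005 tested genes, 1607 rose at least 2-fold in DPP4_pos and 878 in DPP4_neg APCs. The 2-fold count depends on the scaling. With the same total per library Polr1a, Rrn3 and Npm1, for example, rose 1.96-fold, 1.83-fold and 1.81-fold in DPP4_pos APCs. All 4 isoproterenol libraries exceeded all 4 vehicle libraries for 36 of 41 genes in DPP4_neg APCs (28.2% of all tested genes) and for 39 of 41 in DPP4_pos APCs (37.5%). The response was larger in DPP4_pos APCs for 39 genes and smaller for 0, with 2 not called, at a median difference of 1.23; among all tested genes 31.6% had a larger and 31% a smaller response, and the median was -0.02.

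Between the vehicle groups the order of the populations was the opposite. With vehicle, 30 of the 41 genes were lower in DPP4_pos than in DPP4_neg APCs, 1 was higher and 10 were not called, with a median of -0.27, where 35% of all tested genes were lower and 31.6% higher. For 29 genes all 4 DPP4_pos vehicle libraries lay below all 4 DPP4_neg ones (35.2% of all tested genes). With isoproterenol, 39 genes were higher in DPP4_pos APCs, 0 lower and 2 not called, with a median of 0.89, where 37.4% of all tested genes were higher and 37% lower; for the same number, 39, all 4 DPP4_pos libraries were above all 4 DPP4_neg ones (32.9% of all tested genes). The comparisons share libraries in pairs, so they are set side by side and not tested against each other. The means ran from DPP4_pos isoproterenol through DPP4_neg isoproterenol and DPP4_neg vehicle down to DPP4_pos vehicle in 36 of the 41 genes. This order was counted in the deposited scaling and for the 41 genes only. The 36 include Dkc1, Nop14, Noc3l and Gnl2, whose vehicle difference was not called and changed sign under the same total per library. Together the 41 genes took 0.311 ± 0.011% of the normalized counts of a library in DPP4_neg vehicle, 0.394 ± 0.0041% in DPP4_neg isoproterenol, 0.264 ± 0.0053% in DPP4_pos vehicle and 0.619 ± 0.0043% in DPP4_pos isoproterenol (mean ± SD, n = 4).

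The differences and calls above rest on the scaling, because the deposited totals were not equal. The percentages of a library's normalized counts do not, because a factor per library cancels in them. The mean total was 15319400 normalized counts in DPP4_pos vehicle and 18515800 in DPP4_pos isoproterenol, against 16017100 and 16155400 in DPP4_neg vehicle and isoproterenol. Scaling every library to the same total lowered the median of all genes by 0.27 in the DPP4_pos response, by 0.26 in the difference between the responses and by 0.19 in the isoproterenol comparison of the populations, and moved it by -0.01 and 0.06 in the other 2. Under that scaling 36 of the 41 genes rose in DPP4_neg (31% of all tested genes rose) and 39 in DPP4_pos APCs (27.6%), and the medians were 0.38 and 1.32. The response was then larger in DPP4_pos APCs for 38 (18.3% of all tested genes) and smaller for 2. With vehicle 26 were lower in DPP4_pos APCs (30.3%) and 2 higher, and with isoproterenol 39 were higher (26.2%) and 1 lower. Over all tested genes the split of higher against lower calls went from 5517 and 6064 to 3865 and 7835 in the DPP4_pos response. It went from 4423 and 4342 to 2557 and 6828 for the difference between the responses, and from 5237 and 5181 to 3665 and 7004 between the isoproterenol groups.

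**Figure D2:**
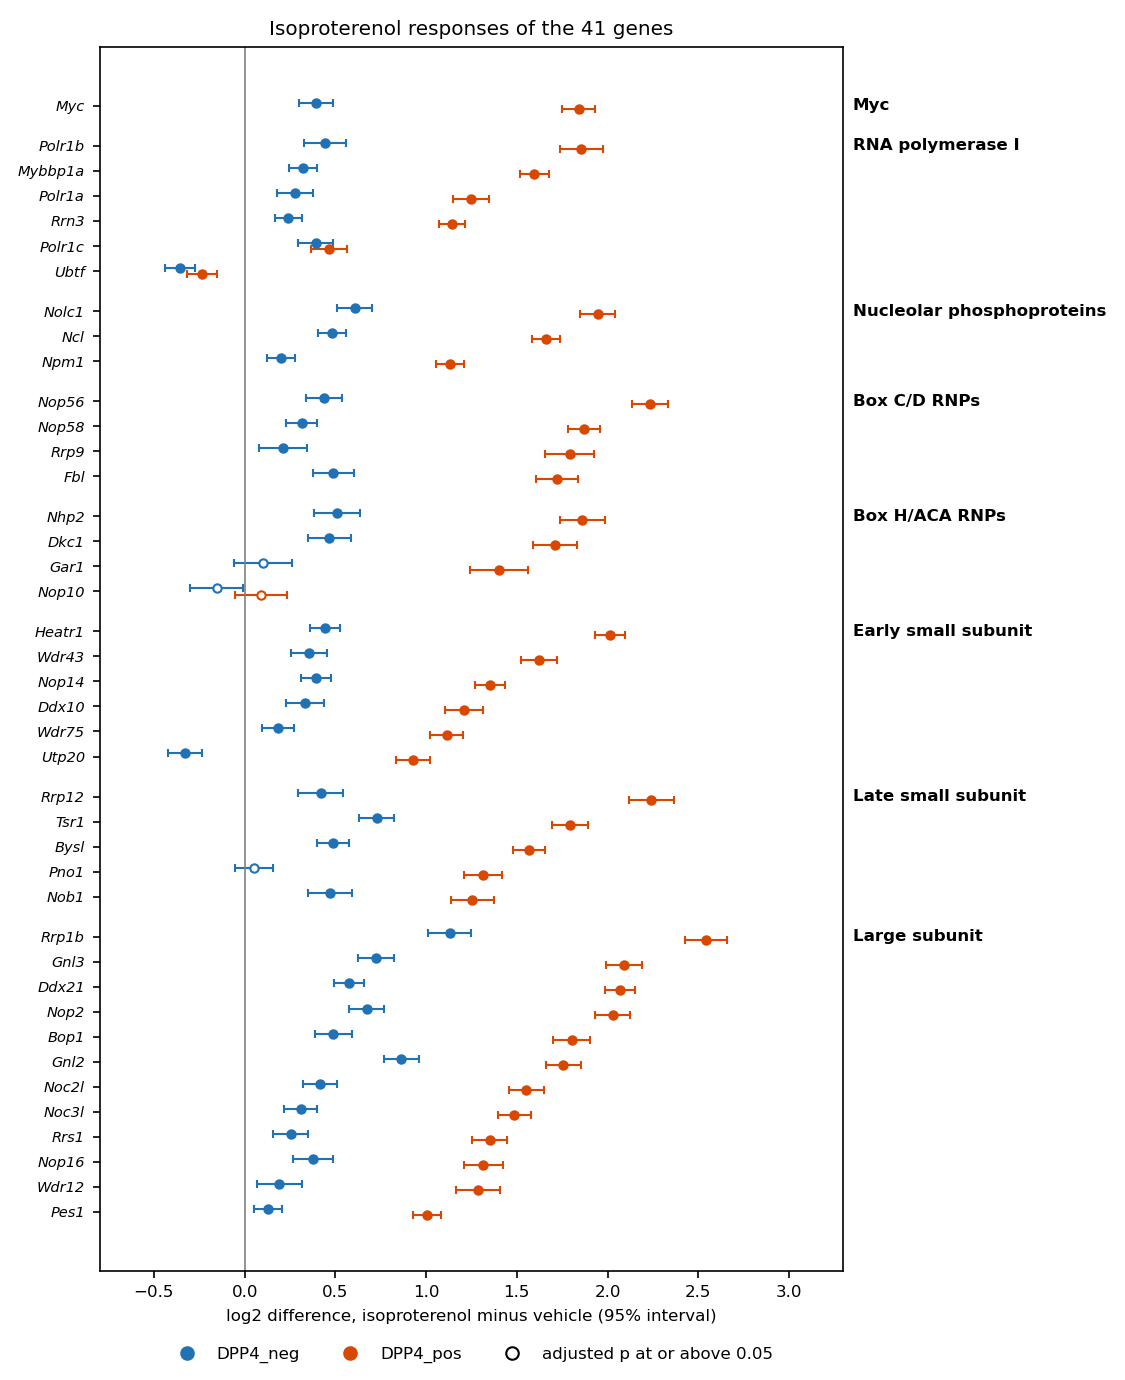
Log2 difference, isoproterenol minus vehicle, of the 41 genes in DPP4_neg (blue) and DPP4_pos APCs (orange), grouped by role; points are estimates, bars 95% intervals, and open points did not pass an adjusted p of 0.05. The orange points lie to the right of the blue ones in every row (under the same total per library not for Ubtf, Polr1c and Nop10), and the rows that stand apart are Ubtf, Polr1c, Nop10 and Utp20.

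Of the 6 genes of RNA polymerase I transcription, 5 rose and 1 fell in each population. Polr1b, the second catalytic subunit, carried one of the clearest differences between the populations with isoproterenol. Polr1b stood at 327, 285, 299 and 321 normalized counts in the DPP4_neg vehicle libraries and at 409.8, 396, 445 and 427 with isoproterenol. Polr1b counts in the DPP4_pos libraries were 299, 273, 293 and 295 with vehicle and 1040.4, 1017, 1035 and 1118 with isoproterenol. The vehicle groups overlapped, whereas the DPP4_pos isoproterenol libraries were all above the DPP4_neg ones, by 1.33 ± 0.056 (adjusted p = 3.93e-15). Polr1a, the largest catalytic subunit, had means of 1078 and 1305 in DPP4_neg and 1024 and 2431 in DPP4_pos vehicle and isoproterenol libraries. Rrn3, the initiation factor that brings the polymerase to the ribosomal gene promoter, had 1367, 1617, 1058 and 2338 in the same order. Mybbp1a, a nucleolar protein, had 2556, 3194, 2155 and 6522.

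The other 2 genes of this role did not follow the rest. Ubtf stood at 2054, 2048, 2033 and 2133 normalized counts in the DPP4_neg vehicle libraries and at 1573, 1761, 1606 and 1520.0 with isoproterenol. Ubtf counts in the DPP4_pos libraries were 2353, 2368, 2236 and 2330.1 with vehicle and 1985, 1964, 2031 and 1909 with isoproterenol. Ubtf, which encodes the factor UBF that coats active ribosomal genes, fell in both populations, with no overlap between treated and vehicle libraries in either. The log2 difference was -0.36 ± 0.04 in DPP4_neg (adjusted p = 6.71e-08) and -0.24 ± 0.04 in DPP4_pos APCs (adjusted p = 1.35e-05). The difference between the responses was 0.12 ± 0.056 (95% interval 0.01 to 0.24, adjusted p = 0.0642). It turned to -0.14 (adjusted p = 0.032) under the same total per library and was called at 0.16 without DPP4_neg isoproterenol replicate 2 and also without DPP4_pos isoproterenol replicate 4. Ubtf was also the only one of the 41 called higher in DPP4_pos vehicle than in DPP4_neg vehicle libraries in the deposited scaling, by 0.17 ± 0.04 (adjusted p = 0.000863). Polr1c, a subunit that RNA polymerases I and III share, rose in both populations, and its 2 responses were not called different. Polr1c stood at 560.5, 568, 582 and 607 normalized counts in the DPP4_neg vehicle libraries and at 722, 799.5, 760.3 and 757 with isoproterenol. Polr1c counts in the DPP4_pos libraries were 509, 566, 527 and 496 with vehicle and 729, 718, 713 and 735 with isoproterenol. The 2 isoproterenol groups overlapped. Its log2 response was 0.39 in DPP4_neg and 0.47 in DPP4_pos APCs, a difference of 0.07 ± 0.067 (95% interval -0.06 to 0.21, adjusted p = 0.343), which became -0.19 (adjusted p = 0.0211) under the same total per library.

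The nucleolar phosphoproteins include the 2 most abundant of the 41 genes. Per kilobase of exon, Npm1 led with a mean of 4589 normalized counts over the 16 libraries, followed by Ncl with 1510, while Wdr12 was lowest with 43.7. All 3 genes of this role, Ncl, Npm1 and Nolc1, rose in both populations, rose more in DPP4_pos APCs and were lower there with vehicle. Ncl stood at 8722, 8507, 8254 and 9169 normalized counts in the DPP4_neg vehicle libraries and at 11652, 12094, 12927 and 11741 with isoproterenol. Ncl counts in the DPP4_pos libraries were 7127, 6989, 6727 and 6802 with vehicle and 21559, 21898, 22018 and 21999 with isoproterenol. The groups did not overlap in any comparison. Ncl encodes nucleolin and Npm1 nucleophosmin, chaperones of nascent ribosomal RNA and ribosomal proteins. Nolc1, a chaperone of small nucleolar particles, rose by 0.61 ± 0.047 in DPP4_neg APCs (adjusted p = 1.83e-10), from 1133 ± 63.8 to 1726 ± 114 normalized counts (mean ± SD, n = 4). In DPP4_pos APCs its means were 911 ± 32 and 3509 ± 47.9.

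Box C/D particles, which guide methylation of ribosomal RNA, had the largest median difference between the responses of any role with more than 1 gene, 1.57 over Fbl, Nop56, Nop58 and Rrp9. All 4 rose in both populations and all 4 were lower in DPP4_pos than in DPP4_neg APCs with vehicle. Nop56 stood at 875, 805, 745 and 854 normalized counts in the DPP4_neg vehicle libraries and at 1079, 1137, 1065 and 1156 with isoproterenol. Nop56 counts in the DPP4_pos libraries were 619, 577, 594 and 565 with vehicle and 2793, 2883, 2667 and 2751 with isoproterenol. Nop56, a scaffold of the particle, went from below to above the DPP4_neg libraries. Its response in DPP4_pos APCs was 2.23 ± 0.048, a 4.7-fold rise (adjusted p = 1.33e-20), and exceeded that in DPP4_neg APCs by 1.80 ± 0.068 (adjusted p = 3.27e-15). Nop58, the partner scaffold, had a difference of responses of 1.55 ± 0.058 (adjusted p = 3.12e-15). Rrp9 stood at 419, 417, 356 and 424 normalized counts in the DPP4_neg vehicle libraries and at 461, 462, 519 and 429 with isoproterenol. Rrp9 counts in the DPP4_pos libraries were 243, 231, 235 and 224 with vehicle and 776, 859, 780.4 and 821 with isoproterenol. Rrp9, a protein of the particle that directs early cuts of the precursor, rose little in DPP4_neg APCs but was 1.72-fold lower in DPP4_pos vehicle libraries (log2 difference -0.79 ± 0.064, adjusted p = 4.69e-10). The difference of its responses was 1.58 ± 0.091 (adjusted p = 3e-12). Fbl, the methyltransferase of the particle, had means of 645 and 905 in DPP4_neg and 502 and 1661 in DPP4_pos vehicle and isoproterenol libraries.

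Box H/ACA particles, which guide pseudouridylation and also bind telomerase RNA, were less uniform. Dkc1, the pseudouridine synthase, and Nhp2 rose in both populations, Gar1 rose in DPP4_pos APCs, and Nop10 was not called in either. Nhp2 stood at 746, 693, 719 and 817 normalized counts in the DPP4_neg vehicle libraries and at 995, 1095, 1030.0 and 1109 with isoproterenol. Nhp2 counts in the DPP4_pos libraries were 439, 407, 417 and 396 with vehicle and 1384, 1699, 1513 and 1460.1 with isoproterenol. The 4 groups of Nhp2 did not overlap, and its deficit in DPP4_pos vehicle libraries was the largest of the 41 genes (-0.84 ± 0.06, 1.79-fold lower, adjusted p = 4.82e-11). Nop10 stood at 579, 583, 594 and 579 normalized counts in the DPP4_neg vehicle libraries and at 555, 568, 453 and 529 with isoproterenol. Nop10 counts in the DPP4_pos libraries were 571, 523, 522 and 545 with vehicle and 607, 589, 618 and 492 with isoproterenol. Nop10 differed from vehicle by -0.15 ± 0.07 in DPP4_neg (adjusted p = 0.0565) and by 0.09 ± 0.07 in DPP4_pos APCs (adjusted p = 0.241). Its 2 responses differed by 0.24 ± 0.099 (adjusted p = 0.0366), a call lost under the same total per library (-0.01655, adjusted p = 0.886), TMM factors (0.19, adjusted p = 0.0947), quantile normalization (0.18, adjusted p = 0.102), no filter (adjusted p = 0.0564) and edgeR's quasi-likelihood test (adjusted p = 0.0798). Single libraries whose removal lost it were replicates 2 and 3 of DPP4_neg vehicle, replicate 3 of DPP4_neg isoproterenol, replicates 2 and 3 of DPP4_pos vehicle and replicates 1, 2 and 3 of DPP4_pos isoproterenol. Without DPP4_neg isoproterenol replicate 2 the DPP4_neg value passed at -0.19, and it also passed without replicate 1, without DPP4_pos isoproterenol replicate 4, under the same total per library (-0.17, adjusted p = 0.0352) and under quantile normalization (-0.15, adjusted p = 0.048). Without DPP4_pos isoproterenol replicate 4 the DPP4_pos value passed at 0.16, whereas the same total per library gave it as -0.18 (adjusted p = 0.0165). Gar1 had a log2 difference of 0.10 ± 0.076 in DPP4_neg APCs (95% interval -0.06 to 0.26, adjusted p = 0.253) and means of 240.2 and 637 in DPP4_pos vehicle and isoproterenol libraries.

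Among the 6 early factors of the small subunit, which make up the processome on the nascent transcript, 5 rose in DPP4_neg and 6 in DPP4_pos APCs. Heatr1 had the highest response of them in both. Heatr1 stood at 857, 817, 819 and 829 normalized counts in the DPP4_neg vehicle libraries and at 1159, 1098, 1106 and 1155 with isoproterenol. Heatr1 counts in the DPP4_pos libraries were 736, 662, 657 and 699 with vehicle and 2783, 2707, 2828 and 2804 with isoproterenol. Isoproterenol libraries were above vehicle libraries in each population, and the responses differed by 1.57 ± 0.056 (adjusted p = 1.29e-15). Utp20, a scaffold of the same complex, was the one gene of the 41 called in opposite directions. Utp20 stood at 1371, 1326, 1314 and 1358 normalized counts in the DPP4_neg vehicle libraries and at 1047, 968, 1117 and 1156 with isoproterenol. Utp20 counts in the DPP4_pos libraries were 1082, 1074, 1072 and 1064 with vehicle and 2095, 1970.5, 2005 and 2105 with isoproterenol. In DPP4_neg APCs all 4 treated libraries were below all 4 vehicle libraries (-0.33 ± 0.045, adjusted p = 1.3e-06). In DPP4_pos APCs all 4 were above (0.93), and the responses differed by 1.26 (95% interval 1.12 to 1.39). Means of Nop14, Wdr43, Wdr75 and the helicase Ddx10 rose from 622 to 1588, 757 to 2326, 864 to 1872 and 494 to 1142 in DPP4_pos APCs. With vehicle the log2 difference of Ddx10 between the populations was 0.06 ± 0.05 (adjusted p = 0.302), the highest of the 10 genes not called there, and the lowest was that of Nop10 at -0.11 ± 0.07 (adjusted p = 0.163).

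The 5 late factors of the small subunit had the lowest vehicle levels in DPP4_pos relative to DPP4_neg APCs of any role, with a median of -0.71, and the lowest median difference with isoproterenol, 0.52. Rrp12, an export factor, showed the largest difference between the responses of the 41 genes. Rrp12 stood at 430.1, 444, 397 and 436 normalized counts in the DPP4_neg vehicle libraries and at 563, 575, 571 and 575 with isoproterenol. Rrp12 counts in the DPP4_pos libraries were 295, 230.4, 265 and 254 with vehicle and 1220.2, 1282, 1252 and 1182 with isoproterenol. Its DPP4_pos libraries were the lowest of all with vehicle and the highest of all with isoproterenol. Rrp12 was 1.64-fold lower with vehicle (-0.71 ± 0.06, adjusted p = 7.25e-10), rose 4.73-fold in DPP4_pos APCs (2.24 ± 0.06, adjusted p = 5.17e-19), and the responses differed by 1.82 ± 0.084 (adjusted p = 8.15e-14). Pno1, the partner of the endonuclease Nob1, was one of 3 genes not called in DPP4_neg APCs. Pno1 stood at 669.5, 698, 638 and 671 normalized counts in the DPP4_neg vehicle libraries and at 702, 703, 679.9 and 692 with isoproterenol. Pno1 counts in the DPP4_pos libraries were 411, 404, 410.1 and 356 with vehicle and 1009, 925, 1029 and 972 with isoproterenol. Its treated and vehicle libraries overlapped in DPP4_neg APCs (0.05 ± 0.05, 95% interval -0.05 to 0.16, adjusted p = 0.363) and were far apart in DPP4_pos APCs. Pno1 and Bysl, another factor of the late precursor, were lower in DPP4_pos vehicle libraries by 0.76 ± 0.05 and 0.77 ± 0.042 (adjusted p = 1.22e-11 and 4.65e-13). Tsr1, a GTPase-like factor, had the third-highest response in DPP4_neg APCs (0.73 ± 0.047, adjusted p = 8.17e-12), from 581 ± 5.53 to 965 ± 65.3 normalized counts. Tsr1 shares 34.2% of its exonic bases with Srr on the opposite strand, and the labels do not state that strand was kept, so the reads of the pair cannot be told apart. Nob1 itself had means of 424, 587, 353 and 843 in DPP4_neg vehicle, DPP4_neg isoproterenol, DPP4_pos vehicle and DPP4_pos isoproterenol libraries.

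All 12 factors of the large subunit rose in both populations, with medians of 0.45 in DPP4_neg and 1.66 in DPP4_pos APCs. In the deposited scaling all 12 rose at least 2-fold in DPP4_pos APCs, the lowest by 1.004 on the log2 scale. Rrp1b, a nucleolar protein whose promoter letters are given above, responded most in both populations. Rrp1b stood at 322, 296, 290.1 and 307 normalized counts in the DPP4_neg vehicle libraries and at 695, 668, 598 and 706 with isoproterenol. Rrp1b counts in the DPP4_pos libraries were 272, 278, 279 and 277 with vehicle and 1762, 1519, 1565 and 1629 with isoproterenol. Treated and vehicle libraries were far apart in both populations. Rrp1b rose 2.19-fold in DPP4_neg (1.13 ± 0.056, adjusted p = 9.04e-14) and 5.83-fold in DPP4_pos APCs (2.54 ± 0.056, adjusted p = 2.33e-20), and it was the only one of the 41 to rise at least 2-fold in DPP4_neg APCs. Gnl3 stood at 792, 800.3, 692 and 821 normalized counts in the DPP4_neg vehicle libraries and at 1335, 1216, 1269.8 and 1301 with isoproterenol. Gnl3 counts in the DPP4_pos libraries were 703, 696, 703 and 672 with vehicle and 2885, 2839.8, 2986 and 3127 with isoproterenol. Gnl3 encodes nucleostemin, a nucleolar GTPase abundant in stem cells, and its responses were 0.72 ± 0.048 and 2.09 ± 0.048 (adjusted p = 1.5e-11 and 4.63e-20). The related GTPase Gnl2 rose by 0.86 ± 0.046 in DPP4_neg APCs (adjusted p = 2.51e-13), from 724 to 1319 in the mean. Nop2, an RNA methyltransferase with an E-box before its start site, rose by 0.67 ± 0.046 and 2.03 ± 0.046 (adjusted p = 2.66e-11 and 3.77e-20). Ddx21, a helicase that binds ribosomal RNA and its genes, went from 1679.8 ± 86.1 to 7050.0 ± 77.7 normalized counts in DPP4_pos APCs (2.07 ± 0.04, adjusted p = 2.11e-21), against 2135 ± 75.3 to 3187 ± 156 in DPP4_neg APCs.

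The complex of Bop1, Pes1 and Wdr12 acts on the large-subunit precursor. In DPP4_pos APCs Bop1 went from 595 to 2079, Pes1 from 938 to 1883 and Wdr12 from 298 to 729 in the mean, and in DPP4_neg APCs from 855 to 1202, 1105 to 1209 and 388 to 442. Bop1 was 1.44-fold lower in DPP4_pos vehicle libraries (-0.52 ± 0.049, adjusted p = 4.08e-09). The assembly factors Noc2l, Noc3l, Nop16 and Rrs1 reached means of 2418, 1270.2, 1025 and 1508 in DPP4_pos isoproterenol, from 824, 452, 411 and 591 with vehicle. Noc2l shares 20.9% of its exonic bases with Samd11 on the opposite strand; of the 41 genes, 14 share some exonic bases with a neighbour, and for 12 of them the share is under 10%.

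**Figure D3:**
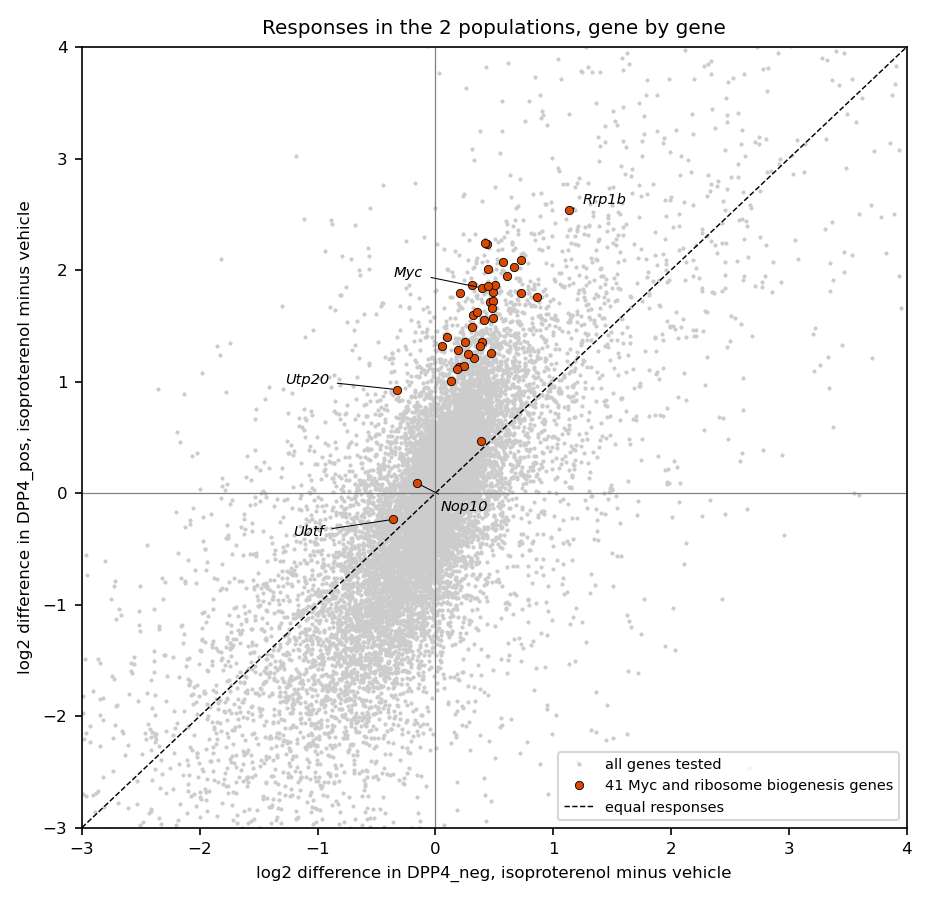
Log2 response to isoproterenol in DPP4_neg (horizontal) against DPP4_pos APCs (vertical) for all 14005 tested genes (grey, 402 of them outside the axes) and the 41 genes (orange); the dashed line marks equal responses. All 41 orange points lie above the line (under the same total per library Ubtf, Polr1c and Nop10 would not), and they span 1.49 log2 units across and 2.78 units upwards.

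Across the 41 genes the log2 responses in the 2 populations had a Pearson r of 0.773 and a Spearman rho of 0.748, and across all 14005 tested genes r was 0.756; genes are not independent replicates and those of 1 population come from the same 8 libraries. Each of the 41 had the larger estimate in DPP4_pos APCs, which held for 48.5% of all tested genes; under the same total per library Ubtf, Polr1c and Nop10 did not. A full pattern was higher with isoproterenol in both populations, more so in DPP4_pos, and lower in DPP4_pos with vehicle but higher there with isoproterenol. In the deposited scaling it was called for 26 genes, and for 9 more only the vehicle comparison was not called. This pattern was counted for the 41 genes only, so no share of all tested genes stands beside it. Under the same total per library the vehicle call was lost for Myc, Polr1c, Rrp1b and Gnl3. Spread between libraries was small: the median coefficient of variation over the 41 genes was 3.2 to 4.9% in the 4 groups.

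Genes around Myc were read from a list of 21 partners, competitors and regulators, of which 20 were tested. In DPP4_pos APCs 14 rose and 5 fell with a median of 0.50, and in DPP4_neg APCs 11 rose and 5 fell with a median of 0.11. For this list and those below, 39.4% of all tested genes rose and 43.3% fell in DPP4_pos APCs. In DPP4_neg APCs the shares were 32.1% and 33.6%. The difference of the responses had a median of 0.27, with 10 larger and 4 smaller in DPP4_pos APCs. Under the same total per library that median was 0.0096, with 7 larger and 7 smaller. Of all tested genes, 31.6% had a larger and 31% a smaller response in the deposited scaling. Under the same total per library 2557 of 14005 had a larger and 6828 a smaller one, with a median of -0.28. Max, the partner of Myc, went from 1083 ± 37.2 to 1267 ± 51 in DPP4_neg and from 1132 ± 26.1 to 1580.4 ± 22.1 in DPP4_pos APCs; its larger response in DPP4_pos APCs (0.26, adjusted p = 0.000258) was not called under the same total per library (-0.01, adjusted p = 0.93). The paralogue Mycl fell in both, from 135 ± 11 to 18.6 ± 4.78 and from 28.6 ± 4.94 to 4.1 ± 0.988 normalized counts (adjusted p = 7.67e-11 and 2.01e-10), the last of these on 11 reads in all 4 libraries. Mycn held 6 to 29 reads in a whole group and was not tested. Of the Mxd proteins, which compete with Myc for Max, Mxd1 rose (0.63 ± 0.082 and 1.37 ± 0.082, adjusted p = 6.91e-07 and 9.37e-13) and Mxd4 fell (-0.76 ± 0.061 and -1.50 ± 0.061, adjusted p = 3.41e-10 and 1.09e-15). Pim1, a kinase that cooperates with Myc, rose by 2.02 ± 0.057 in DPP4_pos APCs (adjusted p = 1.31e-18), from 497 to 2013 normalized counts.

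Ribosome factors outside the 41 also mostly rose, with smaller medians. Of 41 other factors of the small subunit, 29 rose in DPP4_neg (median 0.23) and 40 in DPP4_pos APCs (median 0.93), with Pwp2 at 2.08 ± 0.049 (adjusted p = 5.97e-20). Of 51 other factors of the large subunit, 42 rose in DPP4_neg (median 0.31) and 50 in DPP4_pos APCs (median 1.13), with Mdn1, the large ATPase that releases assembly factors, at 2.06 ± 0.073 (adjusted p = 9.12e-17) and Nop53 at -0.22 ± 0.057 (adjusted p = 0.00124). Of 14 genes of the RNA exosome, which trims precursors, 7 rose in DPP4_neg and 11 in DPP4_pos APCs with medians of 0.14 and 0.51. Their median difference of responses was 0.35, with 10 larger and 0 smaller in DPP4_pos APCs (31.6% and 31% of all tested genes). Under the same total per library it was 0.09, with 4 larger and 2 smaller (18.3% and 6828 of 14005 tested genes). The 33 other genes of RNA polymerases I and III were mixed, with 20 rising and 8 falling in DPP4_pos APCs (15 and 14 under the same total per library). Among them the 2 alternative subunits of RNA polymerase III moved oppositely: Polr3g rose from 53.6 ± 4.88 to 215 ± 13.2 and Polr3gl fell from 388 ± 18.2 to 116 ± 11.1 normalized counts in DPP4_pos APCs (log2 differences 1.98 and -1.74, adjusted p = 1.22e-13 and 1.56e-15).

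A list of 38 growth and metabolism genes linked to Myc gave 21 rising and 8 falling in DPP4_neg (median 0.24) and 34 rising and 4 falling in DPP4_pos APCs (median 0.98). Odc1, the first enzyme of polyamine synthesis, rose from 511 ± 23.8 to 4873 ± 323 in DPP4_pos APCs, a 9.52-fold change (3.25 ± 0.051, adjusted p = 7.07e-23), against 1810.2 ± 55.1 to 2679.6 ± 192 in DPP4_neg APCs. Its DPP4_pos libraries were the lowest with vehicle and the highest with isoproterenol. Eif4e, the cap-binding translation factor, rose by 1.20 ± 0.05 in DPP4_neg and 2.78 ± 0.05 in DPP4_pos APCs (adjusted p = 2.86e-15 and 5.53e-22).

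Ribosomal proteins are what these factors assemble. Of 40 cytosolic ribosomal protein genes, 38 rose in DPP4_neg and 40 in DPP4_pos APCs, with medians of 0.26 and 0.46. With vehicle all 40 were lower in DPP4_pos than in DPP4_neg APCs (median -0.42, where 35% of all tested genes were lower). With isoproterenol 39 of the 41 genes above were higher in DPP4_pos APCs. Of the 40 ribosomal protein genes, 37 were still lower there and 0 higher (median -0.25, where 37% of all tested genes were lower). Rps20 for example was lower by 0.63 ± 0.042 with vehicle and by 0.65 ± 0.042 with isoproterenol (adjusted p = 1.09e-11 and 5.81e-12). Their larger response in DPP4_pos APCs depended on the scaling. In the deposited scaling 29 of 40 had a larger response and 0 a smaller one (31.6% and 31% of all tested genes). Under the same total per library 0 had a larger and 11 a smaller one (18.3% and 6828 of 14005 tested genes). Cell-cycle genes mostly fell in DPP4_pos APCs. Of 32, 6 rose and 24 fell with isoproterenol there (median -0.37), against 6 and 15 in DPP4_neg APCs (median -0.08). With vehicle 25 of the 32 were already lower in DPP4_pos than in DPP4_neg APCs and 1 was higher (median -0.44, where 35% of all tested genes were lower), and with isoproterenol 31 were lower and 1 higher (median -0.76, where 37% were lower). Ccnb2, a mitotic cyclin, fell from 656 ± 16.7 to 227 ± 33.6 normalized counts in DPP4_pos APCs (-1.54 ± 0.073, adjusted p = 1.56e-14), while Pcna, the replication clamp, rose from 999.95 ± 42.1 to 2475 ± 82 (1.31 ± 0.044, adjusted p = 3.38e-17).

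**Figure D4:**
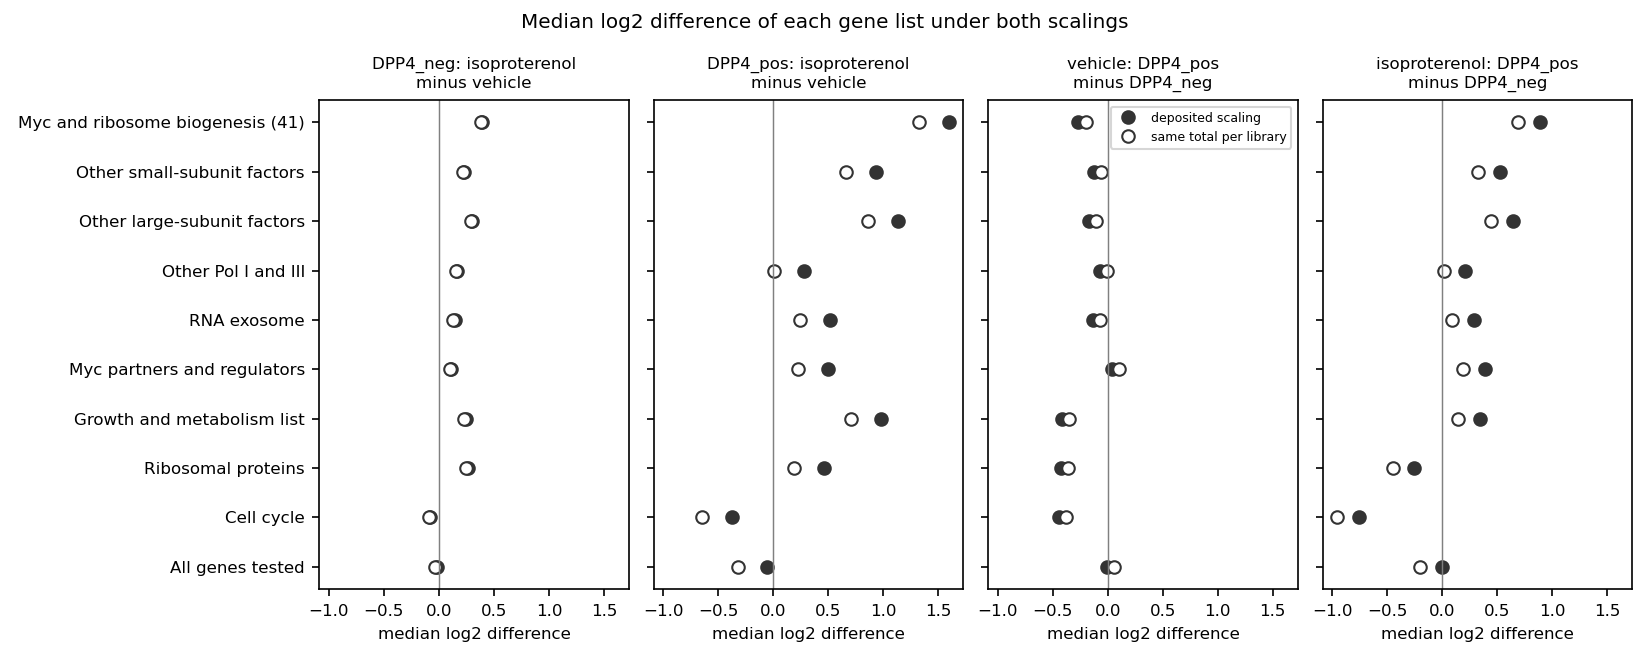
Median log2 difference (horizontal axes) of the 41 genes, 8 other gene lists and all tested genes in 4 comparisons, in the deposited scaling (filled) and with the same total per library (open). The 41 genes have the highest medians in both isoproterenol responses and between the isoproterenol groups, 0.39, 1.597 and 0.89, and in the last of these panels ribosomal proteins and cell-cycle genes lie below 0.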

How the data were processed

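RNA of 16 libraries, each from 500 ng of total RNA, was sequenced and processed by the submitters. The tools listed in the submitters' processing notes are HISAT2 (2.0.1), DESeq2 (1.6.3), featureCounts (1.4.6) and Trim Galore (0.4.1). The deposited values are a normalized signal per gene and library, called normalized counts by the submitters; their values show counts divided by 1 factor per library. In each library 100.0% of values above 0 were whole multiples (within 0.001) of the value of 1 read, so reads could be recovered for count tests; strand use is not given in the sources used here. Genes with a normalized count of at least 10 in at least 4 libraries (14005) entered limma 3.58.1 (R 4.3.3) with a mean-variance trend on log2(normalized count + 1), 4 group means over all 16 libraries, Benjamini-Hochberg adjustment and a threshold of 0.05. This scale understates changes of low genes. Alternatives were the same total per library, TMM factors, quantile normalization, pseudocounts of 0.5 and 5, no filter, a filter of 50, edgeR 4.0.16, DESeq2 1.42.0, only the groups compared, the replicate number as a block and leaving out each library. Members, roles and lists were chosen with earlier results of these data known; no set test was run. In each comparison test values are given for Myc, the 6 called genes with the largest difference and a mean of at least 50, and genes that were not called or went against the rest; other lists give at most 2 per direction. The limma step was tested on simulated data.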

Additional observations from a re-analysis of the deposited data

Results flagged for a closer look

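Single libraries stood apart from the other 3 of their group by Dixon's ratio in 10 of 164 sets of 4 values, 6.1%, where chance gives about 1 in 20. In DPP4_neg isoproterenol these were replicate 3 for Mybbp1a (3046 normalized counts, the others 3234 to 3262), Npm1 (10286, the others 9259 to 9281) and Nolc1 (1557, the others 1757 to 1798). In DPP4_neg vehicle it was replicate 3 for Rrp9 (356, the others 417 to 424). In DPP4_pos vehicle they were replicate 1 for Mybbp1a (2258, the others 2111 to 2128) and Noc2l (907, the others 791 to 805), replicate 3 for Pes1 (957, the others 929 to 933), and replicate 4 for Ddx10 (461, the others 500.1 to 507), Pno1 (356, the others 404 to 411) and Gnl2 (647, the others 719 to 729).

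Responses to isoproterenol that differed between the populations by the interaction test were found for 39 of the 41 genes, all larger in DPP4_pos APCs. Among all tested genes 31.6% had a larger and 31% a smaller response there. Under the same total per library 38 of the 41 had a larger response (18.3% of all tested genes) and 2 a smaller one (6828 of 14005 tested genes). The largest differences, DPP4_pos minus DPP4_neg on the log2 scale, were 1.82 for Rrp12, 1.80 for Nop56, 1.58 for Rrp9, 1.57 for Heatr1, 1.55 for Nop58 and 1.49 for Ddx21, with 1.44 for Myc. Utp20, with a difference of 1.26, was the gene called in opposite directions.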

How the results depend on the processing

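Of the 205 pairs of a gene and a comparison, 187 were called, and 182 to 187 of these calls were kept with the same direction under each alternative fitted to all 5 comparisons (184 to 187 when a library was left out); none was called the other way. Fitted on only the groups compared, which gives no difference of responses, all 148 calls of the other 4 comparisons were kept. Under the same total per library the genes called lower were 2 in the DPP4_pos response and 2 in the difference of the responses, the genes called higher with vehicle were 2, and 1 gene was lower in DPP4_pos with isoproterenol; that gene, Polr1c, was also 1 lower under TMM factors and under quantile normalization. Of the 205 estimates, 9 changed sign under the same total, 2 under quantile normalization and 1 without a library; only that of Nop10 in the difference of the responses had been called (0.24, then -0.01655). The others under the same total were Nop10 in the DPP4_pos response (-0.18) and between the isoproterenol groups (-0.0645), Polr1c (-0.19) and Ubtf (-0.14) in the difference of the responses, and Dkc1, Nop14, Noc3l and Gnl2 with vehicle (all within 0.05 of 0). Under quantile normalization they were Polr1c (-0.03972) and Ubtf (-0.10) in the difference, and without DPP4_neg vehicle replicate 2 Noc3l with vehicle. The same total moves every gene of a library by the same factor; beyond that the cause was not tested. Libraries with the same replicate number had little correlated deviations over all tested genes (24 same-number pairs, r -0.23 to 0.13, 1 over 0.1). Over the 41 genes r ran from -0.22 to 0.31. Such correlations cannot show whether the libraries were paired. With the replicate block 187 of 187 calls were kept and 36 genes rose in DPP4_neg and 39 in DPP4_pos APCs. Depth limits Mycl and Mycn, with 11 and 6 reads in DPP4_pos isoproterenol; each of the 41 genes had at least 220.7 normalized counts in every library.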

Other observations

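Genes of the p53 pathway, which damage to the nucleolus is known to activate, were read from a list of 14. This list holds Trp53 itself and Cdkn2a beside genes that p53 controls. In DPP4_pos APCs 6 rose and 7 fell with isoproterenol (4 and 8 under the same total per library), with a median of -0.37. Of all tested genes 39.4% rose and 43.3% fell there, so the list split much as all genes did. In DPP4_neg APCs 3 rose and 8 fell with a median of -0.14, where 32.1% of all tested genes rose and 33.6% fell. Gadd45a, a stress gene, rose from 269 ± 20.3 to 654 ± 84.6 in DPP4_neg and from 530 ± 9.97 to 1443 ± 113 in DPP4_pos APCs (limma adjusted p = 1.78e-12 and 8.08e-14). Bbc3, which promotes apoptosis, fell from 205 ± 10.2 to 91.3 ± 11.5 and from 169 ± 5.35 to 55.1 ± 6.13 (limma adjusted p = 1.35e-09 and 2.34e-12). Trp53 itself rose in DPP4_pos APCs, from 1154 ± 60.4 to 1764 ± 12.4, and had 1407 ± 63.4 and 1373 ± 93.4 in DPP4_neg vehicle and isoproterenol libraries, where it was not called (limma adjusted p = 0.502).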
